A study of Homo sapiens with 9 samples.

Results

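DNA replication and nucleotide synthesis genes were followed in the human neuroblastoma cell line LAN-5 after exposure to S100B, a secreted astrocyte protein that binds calcium. The 37 genes of the list were looked up by symbol in the probe-to-gene table, and 33 of them had a probe set among the 7713 genes with a probe set of 1 symbol. CDT1, GINS1, MCM4 and MCM7 were not analysed here. The 33 genes comprised 11 of 15 in origin licensing and the replicative helicase, all 7 polymerase and primase genes, all 6 of the sliding clamp and its loader, all 5 of single-strand binding and Okazaki fragment joining, and all 4 of nucleotide supply. All 33 had a probe set above the intensity filter, with means over the arrays of 6.91 to 11.6 log2, and a further RFC1 probe set lay below it.

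RNA was measured on 9 Affymetrix arrays. Untreated LAN-5 cells, cells with S100B at 0.5 nM and cells with S100B at 5 µM supplied 3 arrays each, and the design text calls the 3 arrays of a group biological replicates. All groups were the same commercial line, and the labels name no transgene, other agent or vehicle. The length of the treatment is not given in the sources used here. Of 14 noradrenergic neuroblastoma markers with a probe set, 12 lay above the filter, while TH and SLC18A2 lay below it. Of the markers of other cells with a probe set, 5 of 13 mesenchymal or Schwann-like, 3 of 9 glial, 4 of 7 leukocyte and 4 of 8 epithelial ones lay above it. Those above included SPARC, SOX10, MBP, CD74 and KRT18, and those below included COL1A1, GFAP, PTPRC and EPCAM.

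Before a cell can copy its DNA, the origin recognition complex (ORC) and CDC6 load the ring of MCM2 to MCM7 helicase subunits onto origins, which is called licensing, and geminin (GMNN) prevents a repeat of loading within the same cycle. In S phase CDC45 and the GINS complex join the ring and start it, polymerase alpha and primase lay down primers, and polymerases delta and epsilon extend them while held by the PCNA clamp. Ribonucleotide reductase, thymidylate synthase and thymidine kinase supply the deoxynucleotides. Many of these genes are transcribed at the boundary of G1 and S phase under E2F transcription factors, and in proliferating tumour lines such as neuroblastoma they are used as a readout of cycling cells.

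The promoters of 4 members are shown because they carry or lack the E2F-type letters in the genes described below. Each stretch is the 160 bases before the annotated transcription start in RefSeq (GRCh38.p14), 5′ to 3′ on the gene's strand, with matches to TTTNNCGC or its reverse complement GCGNNAAA in capitals. They lie at chr2:135876444-135876603 on the minus strand for MCM6, chr16:85688955-85689114 on the minus strand for GINS2, chrX:24693758-24693917 on the plus strand for POLA1 and chr7:44123549-44123708 on the minus strand for POLD2.
MCM6: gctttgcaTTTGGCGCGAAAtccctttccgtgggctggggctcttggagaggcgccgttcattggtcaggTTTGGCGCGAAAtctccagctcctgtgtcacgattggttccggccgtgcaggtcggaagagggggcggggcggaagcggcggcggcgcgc
GINS2: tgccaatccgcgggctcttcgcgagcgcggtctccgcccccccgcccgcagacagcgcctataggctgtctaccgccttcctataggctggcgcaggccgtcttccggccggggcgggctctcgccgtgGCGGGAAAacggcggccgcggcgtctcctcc
POLA1: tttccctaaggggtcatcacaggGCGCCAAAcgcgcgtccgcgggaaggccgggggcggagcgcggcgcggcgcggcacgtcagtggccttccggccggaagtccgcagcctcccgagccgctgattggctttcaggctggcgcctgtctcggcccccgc
POLD2: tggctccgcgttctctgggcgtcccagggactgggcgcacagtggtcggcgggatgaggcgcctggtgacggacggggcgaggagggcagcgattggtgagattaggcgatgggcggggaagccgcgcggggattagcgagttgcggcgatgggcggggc

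MCM6 holds 2 blocks of capitals, and in each a match on one strand overlaps a match on the other. In GINS2 the single match begins 31 bases before the start and in POLA1 137 bases before it, and these letters are not in the POLD2 window. Promoters were listed for 30 of the 33 genes, those of MCM5, RPA2 and RPA3 not being among them, and some genes had several. Over the 250 bases before the start, 13 of the 37 promoters of these genes (35.1%), 1 for each of 13 genes, held the E2F-type letters, against 5.92% of 35116 promoters in the table. CCAAT, the letters of the box bound by NF-Y, read on both strands, was in 22 of the 37 (59.5%) against 32% of all. At 5 µM against untreated the 13 genes with the E2F-type letters had a median fold change of -0.07 log2 (11 below 0) and the 17 without them -0.06 log2 (13 below 0).

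The first comparison set cells given 5 µM S100B against untreated cells. Of the 33 replication and nucleotide synthesis genes 0 passed limma's adjusted p under 0.05, where 17 of 5830 probe sets (0.292%) did, all lower. At an unadjusted p under 0.05 there were 4 genes lower (12.1%) and 0 higher, where 6.84% of all probe sets passed, 5.35% lower and 1.49% higher. The 4 became 2 lower without 5 µM replicate 1, untreated replicate 1 or untreated replicate 2, 2 lower and 1 higher after median centring, and 3 lower and 1 higher after quantile normalization. They became 5 lower without the filter or with the replicate block, and 5 lower and 1 higher in a fit of only the 2 groups. Leaving out 0.5 nM replicate 1 or 3, 5 µM replicate 2 or untreated replicate 3 also gave 5 lower. Among all 5830 probe sets the number at that p, in either direction, moved as well. It was 399 in the main fit and ran from 277, without untreated replicate 2, to 455, with the replicate block. Without the filter it was 674 of 8746. The fold changes of the 33 ran from -0.21 to 0.13 log2 with a median of -0.06, against a median of -0.02 over all probe sets tested. The 17 probe sets that passed had fold changes of -1.14 to -0.31 log2, so each of them differed by more than any replication gene.

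Most of the genes lay slightly below untreated. The fold change was below 0 for 26 of 33 genes (78.8%), while 61.9% of all probe sets were also below 0. After quantile normalization 25 of 33 genes were below 0 against 48.7% of all probe sets, and after median centring 25 against 50.4%. The count ran from 23 to 28 when single arrays were left out, and was 23 without untreated replicate 1, the array whose spike-in controls stood apart. In those fits 59.8% to 62.3% of all probe sets were below 0, with 60.7% without untreated replicate 1. In 8 genes all 3 arrays at 5 µM lay below all 3 untreated arrays (24.2%, where 9.47% of all probe sets did so), and in 1 gene, ORC2, they lay above (3.03%, where 2.86% of all probe sets did so). Some margins were narrow: the highest 5 µM and lowest untreated values were 10.4449 and 10.4461 log2 in MCM2, and 8.4229 and 8.4259 in CDC45. Those of GINS2 (8.85 and 8.94) and POLD2 (9.66 and 9.72) lay further apart. Array medians ran from 6.60 to 6.64 log2, and the counts without overlap were not recomputed after rescaling. These genes were read on the same 9 arrays and are not independent of each other. The arrays measure bulk RNA, so fewer cells in S phase and less of a transcript per cell cannot be told apart.

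The intervals give, for each gene taken alone, the size of difference these arrays leave possible. They are not adjusted for the number of genes and are not joint bounds. The 95% intervals reached to either side of the fold change by a median of 0.157 log2 over the 33 genes. At 5 µM all 33 intervals lay within 0.5 log2 of no change, that is between 70.7% and 141.4% of untreated, and 24 of 33 lay within 0.3 log2, between 81.2% and 123.1%. The median SD within groups was 0.0885 log2 for the 33 genes and 0.0877 for all probe sets. RFC2 had the tightest arrays with a pooled SD of 0.0353 log2, and RFC1 the widest with 0.297.

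**Figure D1:**
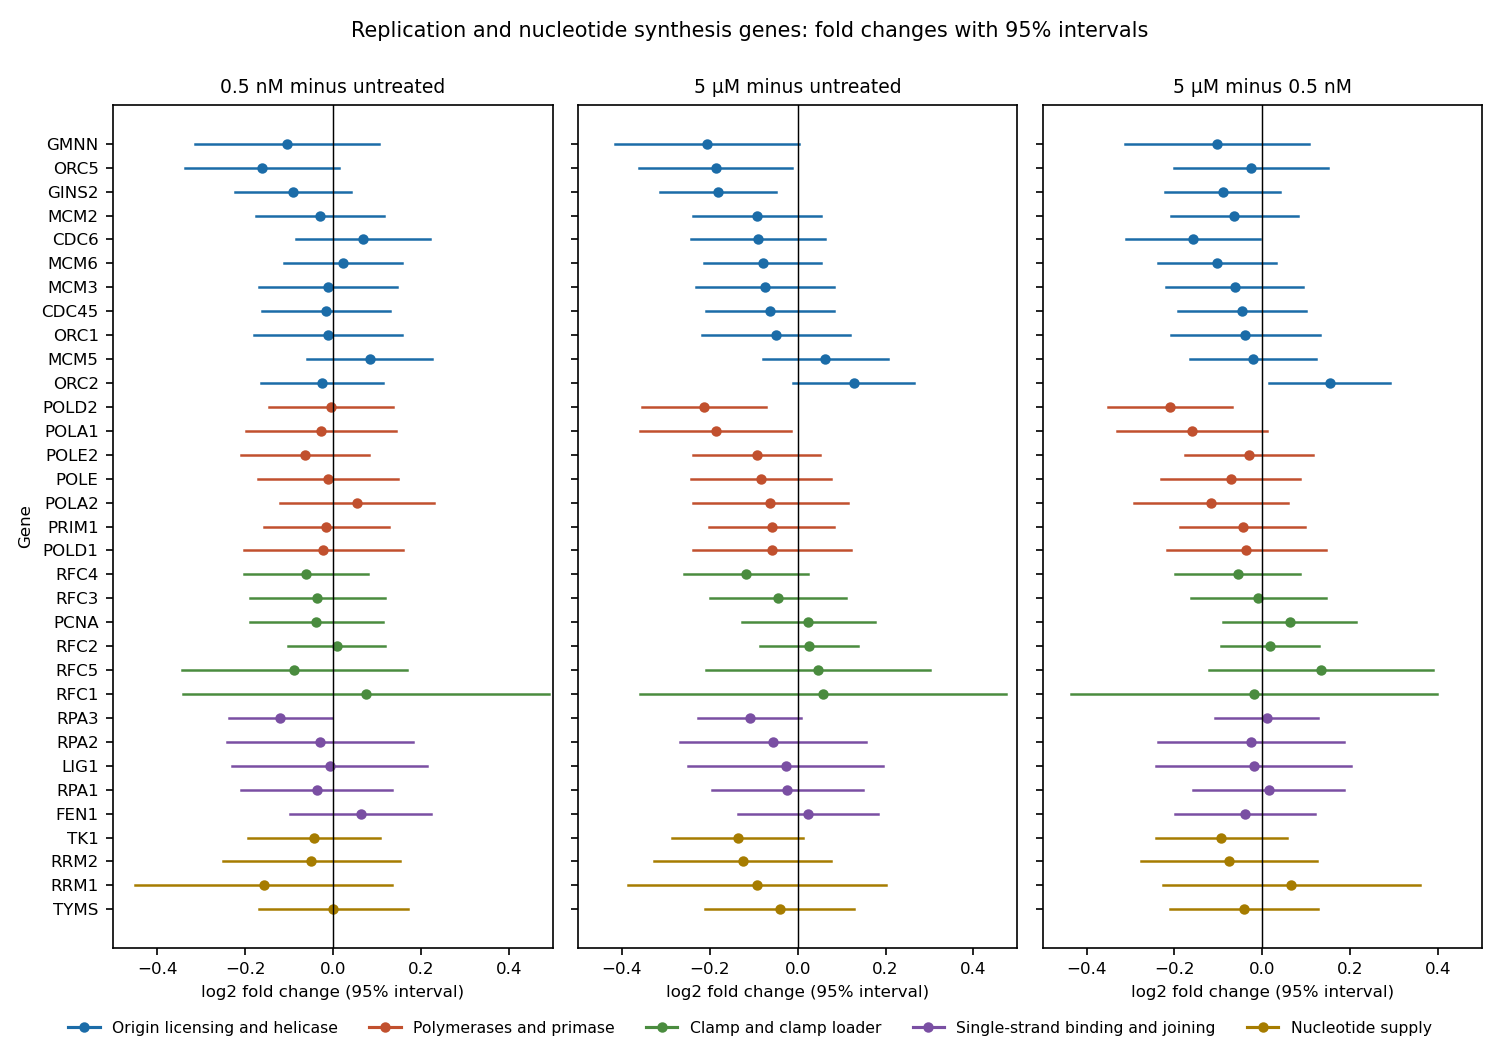
Log2 fold changes of the 33 genes (points) with 95% intervals of the limma fit (lines), for 0.5 nM minus untreated, 5 µM minus untreated and 5 µM minus 0.5 nM, coloured by class and with 3 arrays per group. Most points at 5 µM minus untreated lie left of 0, between -0.21 and 0.13, and most intervals cross 0; RFC1 has the widest intervals.

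In origin licensing and helicase genes 9 of 11 were below 0 at 5 µM, with a median of -0.08 log2 and adjusted p from 0.579 to 0.942. GINS2 encodes a subunit of the GINS complex, which binds the MCM ring and activates it. It measured 9.13, 8.97 and 8.94 log2 in untreated cells, 8.95, 8.91 and 8.90 at 0.5 nM, and 8.85, 8.80 and 8.83 at 5 µM. All arrays at 5 µM were below all others, and those at 0.5 nM overlapped the untreated ones. The difference between 5 µM and untreated was -0.18 ± 0.06 log2 (SE, n = 3 per group), or 88.2% of untreated, with an adjusted p of 0.579 by limma.

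ORC5, a subunit of the origin recognition complex, measured 8.76, 8.80 and 8.61 log2 in untreated cells, 8.68, 8.55 and 8.45 at 0.5 nM, and 8.42, 8.63 and 8.56 at 5 µM. Both doses overlapped the untreated arrays, with means of 8.56 ± 0.11 at 0.5 nM and 8.53 ± 0.10 at 5 µM (SD, n = 3). Its difference at 5 µM was -0.19 ± 0.08 log2 (SE, n = 3 per group), with an adjusted p of 0.707 by limma. ORC2, another subunit of the same complex, lay on the other side. It measured 7.60, 7.55 and 7.48 log2 in untreated cells, 7.60, 7.40 and 7.55 at 0.5 nM, and 7.63, 7.70 and 7.67 at 5 µM. The 5 µM arrays were above every other array, and the difference from untreated was 0.13 ± 0.06 log2 (SE, n = 3 per group), with an adjusted p of 0.746 by limma. ORC1, the largest ORC subunit, had -0.05 log2.

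GMNN, the licensing inhibitor, had the second largest difference among the 33. It averaged 9.71 ± 0.06 log2 at 5 µM and 9.92 ± 0.14 in untreated cells (SD, n = 3 each), a difference of -0.21 ± 0.09 (SE), with limma's adjusted p = 0.74 and groups that overlapped. CDC6, the loader of the helicase ring, differed by -0.09 log2 with overlapping groups. CDC45, a component of the active helicase, differed by -0.06 log2 without overlap between the groups. Of the 4 helicase subunits measured, MCM2, MCM6 and MCM3 had fold changes of -0.09, -0.08 and -0.07 log2 and MCM5 had 0.06. MCM2 measured 10.41, 10.44 and 10.33 log2 at 5 µM, and 10.57, 10.45 and 10.45 in untreated cells. These arrays did not overlap, while those of MCM3, MCM5 and MCM6 did.

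All 7 polymerase and primase genes were below 0 at 5 µM, from -0.21 to -0.06 log2 with a median of -0.08, and none passed. POLD2, the small accessory subunit of polymerase delta, had the smallest p and the largest difference of all 33 genes. It measured 9.86, 9.72 and 9.79 log2 in untreated cells, 9.83, 9.83 and 9.70 at 0.5 nM, and 9.52, 9.55 and 9.66 at 5 µM. The 5 µM arrays were below the 6 others. The difference from untreated was -0.21 ± 0.06 log2 (SE, n = 3 per group), or 86.2% of untreated, with a 95% interval of -0.35 to -0.07, an unadjusted p of 0.00689 in the fit across all probe sets and limma's adjusted p = 0.463.

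POLA1, the catalytic subunit of polymerase alpha, measured 8.57, 8.68 and 8.63 log2 in untreated cells, 8.64, 8.47 and 8.69 at 0.5 nM, and 8.35, 8.40 and 8.58 at 5 µM. Replicates 1 and 2 at 5 µM were below all untreated arrays, and replicate 3 overlapped them. Its difference was -0.19 ± 0.08 log2 (SE, n = 3 per group), with an adjusted p of 0.70 by limma. Its partner subunit POLA2 had -0.06 log2 and the primase subunit PRIM1 -0.06. POLE, the catalytic subunit of polymerase epsilon, had -0.08 log2, its accessory subunit POLE2 -0.09, and POLD1, the catalytic subunit of polymerase delta, -0.06. As a reading of RNA integrity, the difference between 3' and 5' ACTB control probe sets ran from -0.11 to 0.14 log2 at 5 µM and from -0.16 to 0.11 in untreated cells. For GAPDH the same difference ran from 0.24 to 0.40 log2 at 5 µM and from 0.23 to 0.30 in untreated cells.

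**Figure D2:**
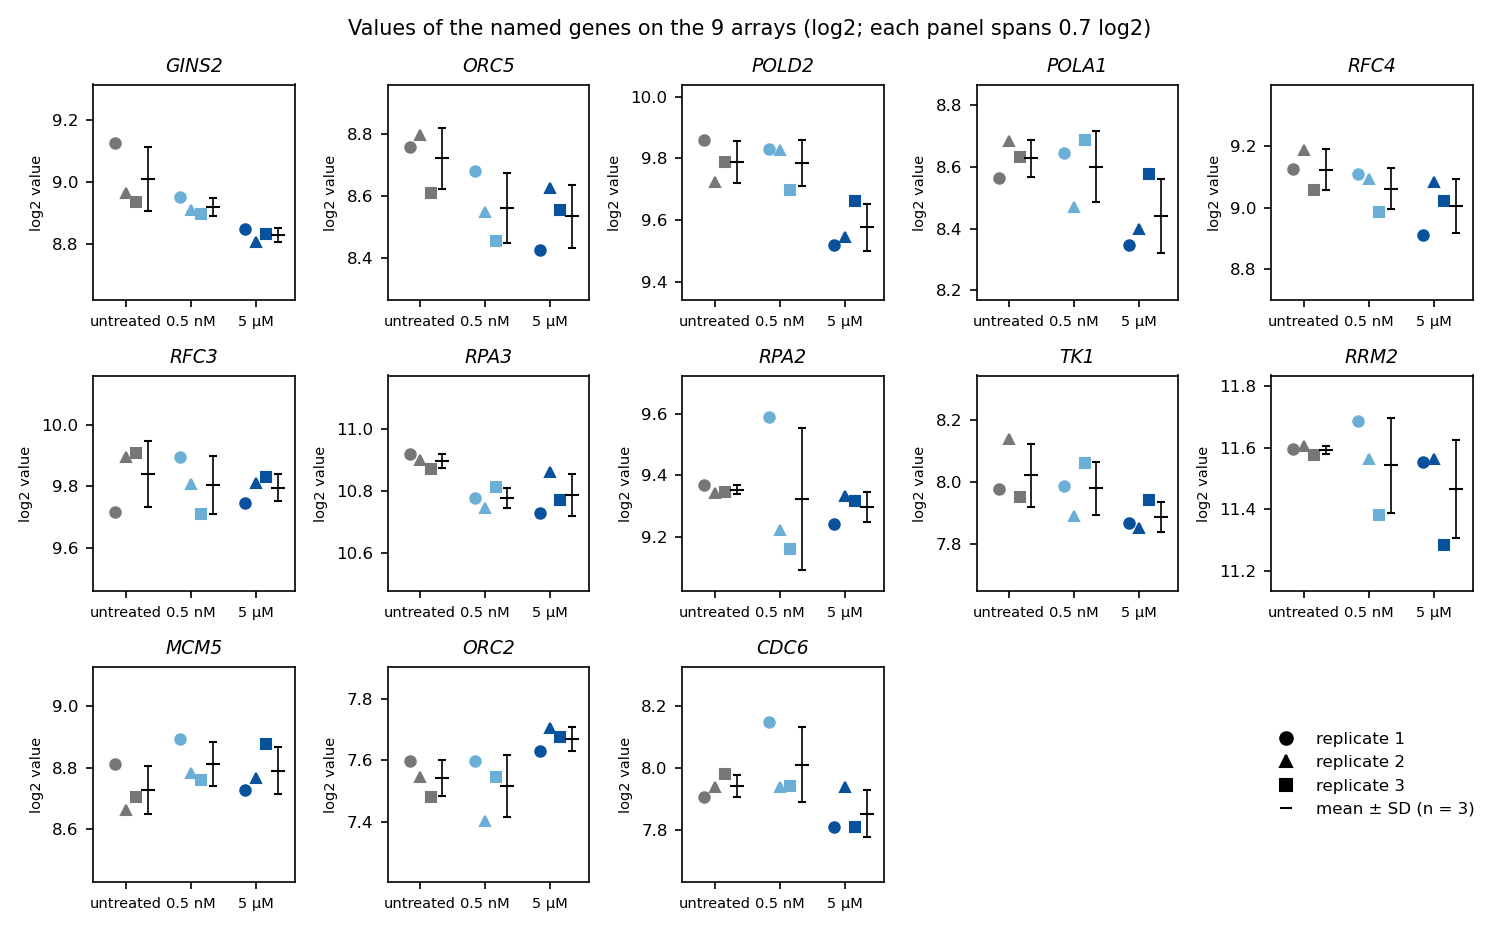
Log2 values of the 13 genes described array by array, with 3 arrays in each of the untreated, 0.5 nM and 5 µM groups (points, shape by replicate number) and the mean ± SD of each group (black); each panel spans 0.7 log2. GINS2 and POLD2 have all 5 µM points below the others and ORC2 has them above, while RFC3, RPA2 and MCM5 overlap between untreated and at least 1 dose.

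The clamp and its loader had more genes above than below 0. At 5 µM 2 of 6 were below 0 and 4 above, with a median of 0.03 log2, and no gene passed. PCNA, the sliding clamp, averaged 11.53 ± 0.10 log2 at 5 µM and 11.50 ± 0.06 in untreated cells (SD, n = 3 each), a difference of 0.02 ± 0.07 (SE). RFC4, a small subunit of the clamp loader replication factor C, measured 9.13, 9.19 and 9.06 log2 in untreated cells, 9.11, 9.09 and 8.98 at 0.5 nM, and 8.91, 9.08 and 9.02 at 5 µM. The groups overlapped at both doses, and the difference at 5 µM was -0.12 ± 0.06 log2 (SE, n = 3 per group), with an adjusted p of 0.766 by limma, and it was -0.07 log2 without 5 µM replicate 1.

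RFC3, also a small loader subunit, measured 9.72, 9.89 and 9.91 log2 in untreated cells, 9.90, 9.81 and 9.71 at 0.5 nM, and 9.75, 9.81 and 9.83 at 5 µM. These values interleave, with a difference at 5 µM of -0.04 ± 0.07 log2 (SE, n = 3 per group), with an adjusted p of 0.942 by limma, and it ran from -0.11 to -0.01 log2 when single arrays were left out. RFC2 had 0.03 log2, RFC5 0.05 and RFC1, the large subunit, 0.06. The RFC1 value rests on arrays from 7.06 to 7.78 log2 within the untreated group alone. The dim second RFC1 probe set, fitted without the filter, had -0.07 ± 0.06 log2 (SE), the opposite sign.

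Single-strand binding and joining genes had a median of -0.03 log2 at 5 µM, with 4 of 5 below 0. RPA3, the smallest subunit of replication protein A, which coats exposed single-stranded DNA, measured 10.92, 10.90 and 10.87 log2 in untreated cells, 10.78, 10.74 and 10.81 at 0.5 nM, and 10.73, 10.86 and 10.77 at 5 µM. It lay below all untreated arrays at both doses. The difference at 5 µM was -0.11 ± 0.05 log2 (SE, n = 3 per group), with an adjusted p of 0.744 by limma.

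RPA2, the middle subunit, measured 9.37, 9.34 and 9.35 log2 in untreated cells, 9.59, 9.22 and 9.16 at 0.5 nM, and 9.24, 9.33 and 9.32 at 5 µM. The 5 µM arrays were just below the untreated ones, and 0.5 nM replicate 1 was above all the others. Its difference at 5 µM was -0.06 ± 0.10 log2 (SE, n = 3 per group), with an adjusted p of 0.944 by limma. It was -0.03 log2 without 5 µM replicate 1 or after median centring, and -0.01 after quantile normalization. RPA1, the large subunit, had -0.02 log2 and LIG1, the ligase that seals Okazaki fragments, -0.03. FEN1, the nuclease that trims their flaps, had 0.02 log2, with the identical value of 10.31 on all 3 arrays at 5 µM, so that no spread was measured in that group. Other genes, CDC6, POLE2 and RPA1 among them, also held identical values on different arrays. The SD of groups with such ties may understate the error, and the origin of the ties is not known.

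All 4 nucleotide supply genes were below 0 at 5 µM, with a median of -0.11 log2. TK1, the S-phase thymidine kinase of the salvage route, measured 7.98, 8.14 and 7.95 log2 in untreated cells, 7.99, 7.89 and 8.06 at 0.5 nM, and 7.87, 7.85 and 7.94 at 5 µM. The 5 µM arrays were below all untreated arrays, by a narrow margin for replicate 3, and those at 0.5 nM overlapped. The difference at 5 µM was -0.14 ± 0.07 log2 (SE, n = 3 per group), with an adjusted p of 0.746 by limma, and it was -0.08 log2 without untreated replicate 2.

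RRM2, the cell-cycle-regulated subunit of ribonucleotide reductase, measured 11.60, 11.60 and 11.58 log2 in untreated cells, 11.69, 11.56 and 11.38 at 0.5 nM, and 11.55, 11.56 and 11.28 at 5 µM. All 5 µM arrays were below the untreated ones, and replicate 3 was far lower than the other two. The difference was -0.13 ± 0.09 log2 (SE, n = 3 per group), with an adjusted p of 0.827 by limma, and it was -0.03 log2 without 5 µM replicate 3. RRM1, the large subunit of the same enzyme, had -0.09 ± 0.13 log2 (SE) and TYMS, thymidylate synthase, -0.04 ± 0.08 (SE).

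Averaged by class on each array, polymerase and primase genes lay at -0.17, -0.11 and -0.05 log2 in 5 µM replicates 1, 2 and 3 relative to the untreated mean, against 0.02, -0.02 and 0.0011 in the untreated arrays. Nucleotide supply genes lay at -0.11, -0.13 and -0.06 log2 at 5 µM, against -0.05, 0.07 and -0.02 in untreated cells. In these 2 classes the 5 µM arrays did not overlap the untreated ones on the values as deposited. The nearest arrays, 5 µM replicate 3 and an untreated one, lay at -0.0586 and -0.0483 log2 for nucleotide supply. For the polymerases they lay at -0.0522 and -0.0185. Array medians ran from 6.60 to 6.64 log2, and the class means were not recomputed after rescaling, so the separation may depend on the scaling. The 0.5 nM arrays of nucleotide supply genes, at 0.06, -0.11 and -0.13 log2, overlapped both other groups, and those of the polymerases, at 0.02, -0.02 and -0.04, overlapped the untreated ones. By contrast, the clamp genes spread from -0.12 in 5 µM replicate 1 to 0.11 in replicate 3. Licensing genes lay at -0.11, -0.06 and -0.06 log2 at 5 µM against 0.07, -0.02 and -0.06 in untreated cells, with replicate 3 inside the untreated range. Averaged over all 33 genes, 5 µM replicates 1 and 2 were below the untreated arrays at -0.12 and -0.06 log2, and replicate 3, at -0.02, was not.

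**Figure D3:**
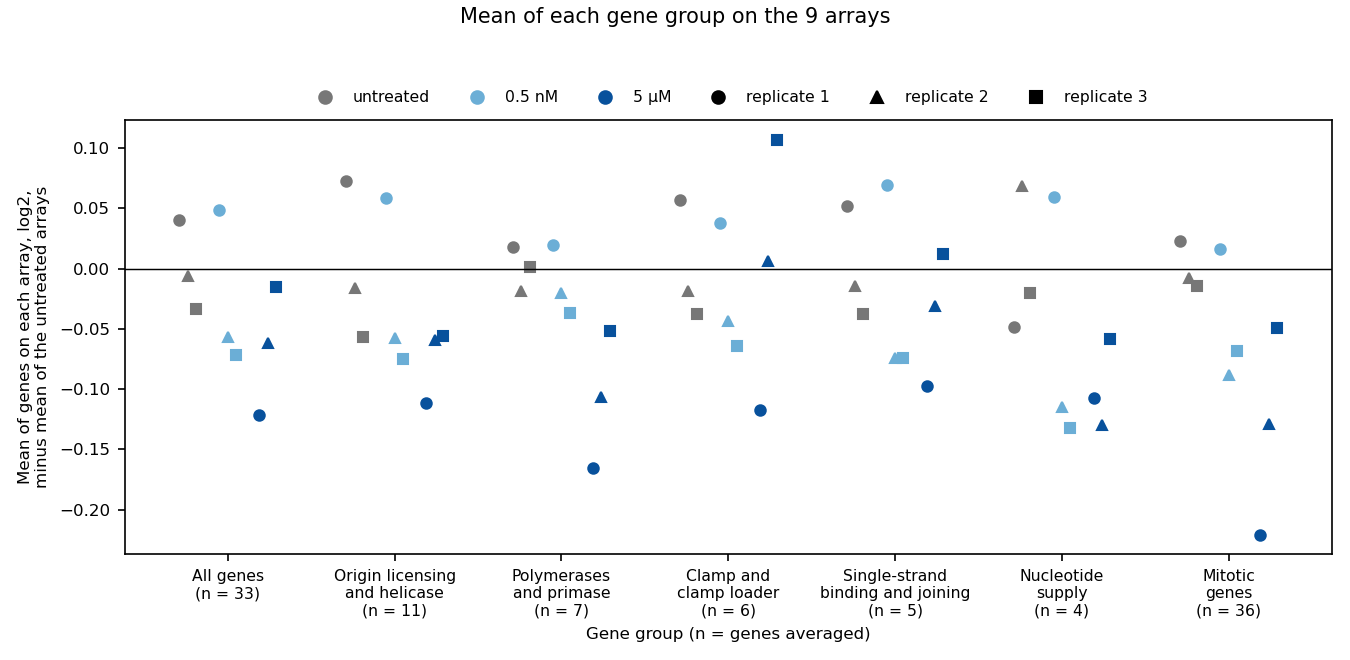
Mean log2 value of each gene group on each array minus the mean of the 3 untreated arrays, for all 33 genes, their 5 classes and 36 mitotic genes; colour gives the group and shape the replicate number. On the values as deposited, without rescaling of the arrays, the 5 µM points of polymerase, nucleotide supply and mitotic genes lie below all untreated points. Those of the clamp genes spread from -0.12 to 0.11.

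Other genes of the same processes were read from lists of neighbouring pathways. Of 17 further replication fork genes above the filter 0 passed at 5 µM, with a median of -0.04 log2. TOP2A, the topoisomerase that untangles replicated DNA, averaged 9.20 ± 0.37 log2 at 5 µM and 9.50 ± 0.05 in untreated cells (SD, n = 3 each, limma's adjusted p = 0.74), and its spread at 5 µM was wider than the difference. DBF4, the activator of the CDC7 kinase, had -0.26 ± 0.13 log2 (SE) and RNASEH2A, which removes RNA from DNA hybrids, -0.13 ± 0.07. Of 28 further nucleotide synthesis and salvage genes 0 passed, with a median of -0.06 log2. Uridine monophosphate synthase UMPS had -0.16 ± 0.07 log2 (SE), PPAT, the first enzyme of purine synthesis, -0.22 ± 0.12 and the mitochondrial kinase DGUOK -0.13 ± 0.08.

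Regulators of the entry into S phase also did not pass. Of 21 measured, 0 passed at 5 µM, with a median of -0.05 log2, and 13 were below 0, where 61.9% of all probe sets were. E2F1 averaged 8.33 ± 0.06 log2 at 5 µM and 8.39 ± 0.06 in untreated cells (SD, n = 3 each). E2F2, another activating E2F, had -0.14 ± 0.06 log2 (SE) and RBL2, the pocket protein p130 that represses E2F targets in resting cells, 0.17 ± 0.05, both with limma's adjusted p of 0.463 or more. MYC had -0.27 ± 0.09 log2 (SE, limma's adjusted p = 0.607), MYCN 0.05 ± 0.06 and the cyclin-dependent kinase inhibitor CDKN1A 0.16 ± 0.15. Among 9 histone and chromatin assembly genes 0 passed, with a median of -0.0063 log2. NPM1, a nucleolar histone chaperone, had -0.05 log2, SUPT16H, a subunit of the FACT chaperone, 0.03 and the histone chaperone NASP 0.03.

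Mitotic genes had a lower median than the replication genes, a difference that was not tested. Of 36 measured, 0 passed at 5 µM, 32 were below 0 and the median was -0.14 log2, with 11 lower at an unadjusted p under 0.05. Over all probe sets 61.9% were below 0 and 5.35% were lower at that p. PLK1, the mitotic kinase, averaged 8.30 ± 0.01 log2 at 5 µM and 8.59 ± 0.08 in untreated cells (SD, n = 3 each, limma's adjusted p = 0.0888). CCNB2, a mitotic cyclin, had -0.24 log2 and the anaphase activator CDC20 -0.24. In the mean of the 36 genes 5 µM replicates 1, 2 and 3 lay at -0.22, -0.13 and -0.05 log2 relative to the untreated mean, the same order as in the mean of the replication genes. Their part in the values of the replication genes was not tested.

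**Figure D4:**
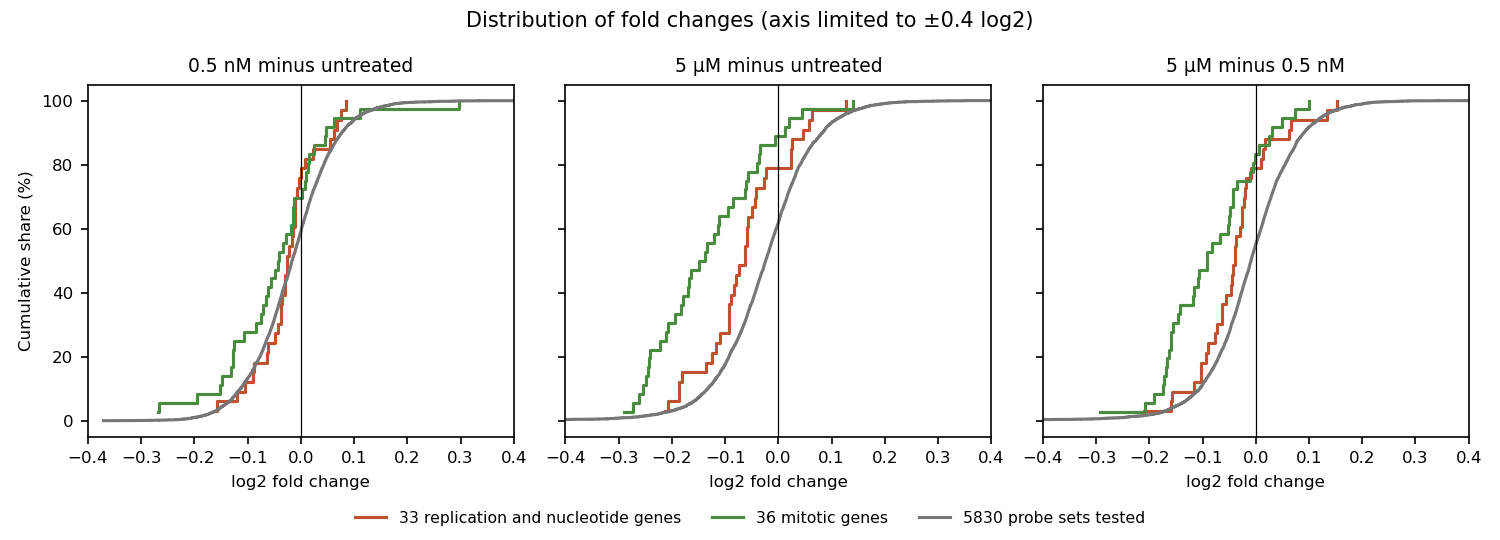
Cumulative share (%) of log2 fold changes for the 33 replication and nucleotide synthesis genes, 36 mitotic genes and all 5830 probe sets tested, in 3 comparisons, with the axis limited to 0.4 log2 on either side of 0. At 5 µM minus untreated the replication genes lie between the mitotic genes (median -0.14) and all probe sets (median -0.02), and at 0.5 nM minus untreated the replication genes and all probe sets have medians of -0.03 and -0.02.

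The second comparison set cells given 0.5 nM against the same untreated arrays. By limma 0 of 33 genes and 0 of 5830 probe sets (0%) passed, and 0 by an unmoderated test. At an unadjusted p under 0.05, 1 of 33 genes (3.03%) was lower and 0 were higher, where 3.29% of all probe sets passed, 2.49% lower and 0.806% higher. The fold changes ran from -0.16 to 0.08 log2 with a median of -0.03, against -0.02 over all probe sets. Of the 33, 25 were below 0 (75.8%), against 59.1% of all probe sets. After median centring 15 were, against 44% of all, and after quantile normalization 21 were, against 49.9%. Leaving out 0.5 nM replicate 3 left 16 below 0, against 52% of all probe sets, and leaving out untreated replicate 1 left 18, against 58%.

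RPA3 was the gene with the smallest p, at -0.12 ± 0.05 log2 (SE, n = 3 per group), and the only one of the 33 without overlap, which held in the lower direction for 5.01% of all probe sets and in the higher direction for 1.97%. ORC5 had -0.16 ± 0.08 log2 and GINS2 -0.09 ± 0.06, which was -0.03 without untreated replicate 1. MCM5, a helicase subunit, measured 8.81, 8.66 and 8.71 log2 in untreated cells, 8.89, 8.78 and 8.76 at 0.5 nM, and 8.73, 8.77 and 8.88 at 5 µM. All 3 groups of MCM5 overlapped, and its difference at 0.5 nM was 0.08 ± 0.06 log2 (SE), with 0.04 without 0.5 nM replicate 1, 0.05 without untreated replicate 2 and 0.13 without untreated replicate 1. Each had limma's adjusted p = 0.9999.

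By class the medians at 0.5 nM were -0.02 log2 for licensing and helicase genes, -0.02 for polymerases and primase, -0.04 for the clamp and its loader, -0.03 for single-strand binding and joining, and -0.05 for nucleotide supply. All 33 of the 95% intervals lay within 0.5 log2 of no change and 28 within 0.3. The other 5 were those of RFC1, at 0.07 ± 0.19 log2 (SE), RRM1, at -0.16 ± 0.13, RFC5, at -0.09 ± 0.12, GMNN, at -0.10 ± 0.09, and ORC5. In the neighbouring lists 0 passed. CHAF1A, the chromatin assembly factor subunit, had 0.24 ± 0.08 log2 (SE), UMPS -0.15 ± 0.07, the kinase inhibitor CDKN1B -0.34 ± 0.16, the DNA methyltransferase DNMT1 0.17 ± 0.11 and RACGAP1, a cytokinesis regulator, -0.27 ± 0.10. E2F1 had -0.0057 log2, MYC -0.08, MYCN 0.03, CDKN1A 0.20 and TOP2A 0.04.

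The third comparison set the doses against each other and shares its arrays with the other 2. At 5 µM against 0.5 nM 0 of 33 genes passed, where 15 of 5830 probe sets (0.257%) did, 14 of them lower (0.24%) and 1 higher (0.0172%). At an unadjusted p under 0.05, 2 genes were lower (6.06%) and 1 was higher (3.03%), where 4.65% of all probe sets passed, 2.92% lower and 1.73% higher. Without overlap between the groups, POLD2 and GINS2 were lower, as 4.63% of all probe sets were, and ORC2 was higher, as 2.35% were. The fold changes ran from -0.21 to 0.15 log2, with 26 of 33 below 0 (55% of all probe sets) and a median of -0.04. The number below 0 was 18 without 0.5 nM replicate 1, against 47.3% of all probe sets, and 19 without 5 µM replicate 1, against 54.4%.

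POLD2 was -0.21 ± 0.06 log2 apart (SE, n = 3 per group), with an adjusted p of 0.832 by limma, close to its difference from untreated, because its 0.5 nM mean was 9.79 ± 0.08 and its untreated mean 9.79 ± 0.07 (SD, n = 3 each). ORC2 was 0.15 ± 0.06 log2 apart, or 0.10 without 0.5 nM replicate 2, and POLA1 -0.16 ± 0.08. CDC6 measured 7.91, 7.94 and 7.98 log2 in untreated cells, 8.15, 7.94 and 7.94 at 0.5 nM, and 7.81, 7.94 and 7.81 at 5 µM. The groups touch at 7.94 log2, where replicate 2 of each group had the identical value. The difference of CDC6 between the doses was -0.16 ± 0.07 (SE), or -0.09 without 0.5 nM replicate 1. ORC2, POLA1 and CDC6 all had limma's adjusted p = 0.994.

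Over the 3 groups the 5 µM mean was the lowest for 23 of the 33 genes (69.7%), against 42.7% of all probe sets. It was the highest for 4 (12.1%), a share not computed over all probe sets. The number with the lowest mean at 5 µM was 17 without 5 µM replicate 1, against 44% of all probe sets, and 17 without 0.5 nM replicate 1, against 36.2%. After median centring it was 23, against 37.7%, and after quantile normalization 22, against 33.3%. The means followed the order untreated above 0.5 nM above 5 µM in 19 genes (57.6%), against 25.5% of all probe sets. That count depended on the scaling and on single arrays: it was 10 after median centring, against 18% of all probe sets, 14 after quantile normalization, against 17.6%, and 10 to 19 when single arrays were left out, with 10 without 0.5 nM replicate 3. In the neighbouring lists between the doses 0 passed, with TOP2A at -0.34 ± 0.14 log2 (SE), IMPDH1, an enzyme of guanine nucleotide synthesis, at -0.16 ± 0.07, RBL2 at 0.15 ± 0.05, DNMT1 at -0.18 ± 0.11 and PLK1 at -0.29 ± 0.06 (limma's adjusted p = 0.0911). E2F1 had -0.05 log2, MYC -0.20, MYCN 0.01 and CDKN1A -0.03.

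The arrays as a whole were alike. Array medians were 6.60 to 6.64 log2 and arrays correlated at 0.993 to 0.997 across probe sets, within and between groups. The 18 spike-in control probe sets averaged 8.70 log2 in untreated replicate 1, against 9.04 to 9.45 on the other arrays. Without that array 0 of 33 genes passed at 5 µM or at 0.5 nM, and the median fold changes were -0.06 log2 at 5 µM and -0.0098 at 0.5 nM. Of 16 markers of mesenchymal or Schwann-like cells, glia, leukocytes and epithelium above the filter, 0 passed in any comparison, the smallest limma's adjusted p being 0.208, for the epithelial factor ELF3 at 5 µM. Relative to the untreated mean, the 4 leukocyte markers averaged -0.08, -0.20 and -0.09 log2 on the 5 µM arrays, against -0.05, 0.03 and 0.03 on the untreated ones. The 4 epithelial markers averaged -0.09, -0.11 and -0.11 log2 at 5 µM, against -0.06, 0.08 and -0.02 in untreated cells. Their part in the values of the replication genes was not tested.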

How the data were processed

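Biotin-labelled RNA of LAN-5 cells was hybridised to 9 Affymetrix arrays, grouped by sample title. The deposited values are log2 values, 1 per probe set and array, and the authors used GCRMA (background correction, normalization and summary of probes), per the submitters' processing notes, which give no version. Their range showed the log2 scale. Background correction may compress differences of dim probe sets. The number of arrays limits the precision, and no batch is given.

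Of 8793 probe sets, 47 controls were removed, then the third with the lowest mean over all arrays (at or below 5.95 log2), which left 5830. Symbols came from the platform annotation, updated by Entrez identifier. 1 probe set per gene was used, that with the highest mean. All arrays entered 1 model per probe set (limma 3.58.1 under R 4.3.3, lmFit then eBayes), with p-values adjusted by Benjamini-Hochberg over 5830 probe sets, and tested on simulated data. With 3 arrays a group, the smallest p of an exact two-sided permutation test is 0.1.

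The genes and lists were chosen with earlier results of these data known, so lists are described by counts and medians without a test. Array-by-array values are given for the 2 genes of each class with the smallest p at 5 µM against untreated and the 4 with the smallest p in each other comparison. Of each other list the genes with the smallest p are named, with E2F1, MYC, MYCN, CDKN1A and TOP2A. Promoters came from RefSeq (GRCh38.p14). The alternatives were 2 normalizations, 2 filters, 2 moderation settings, a fit of only 2 groups, a replicate block and leaving out each array.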

Additional observations from a re-analysis of the deposited data

How the results depend on the processing

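Under every alternative run, 0 of the 33 replication and nucleotide synthesis genes passed in any of the 3 comparisons. The 18 fold changes of genes described array by array kept their direction under all of their alternatives. These genes were picked by the smallest p in the same data, and many alternatives leave a fold change as it is. The kept direction is therefore not independent support. The count of genes with means in the order untreated above 0.5 nM above 5 µM was recomputed under these alternatives as a choice made after seeing the data, and it ran from 10 to 19. The count of genes with the lowest mean at 5 µM was recomputed in the same way and ran from 17 to 25. The count over all probe sets was less stable. At 5 µM against untreated 17 passed, 7 in a fit of only the 2 groups, 1 with an unmoderated test and 4 to 17 when single arrays were left out, with 4 without untreated replicate 1 or 3, 6 without 5 µM replicate 1, 7 without untreated replicate 2, and 8 and 9 without 5 µM replicates 2 and 3. At 5 µM against 0.5 nM 15 passed, 4 in a fit of only the 2 groups, 1 with an unmoderated test and 3 to 14 when single arrays were left out, with 5, 6 and 3 without 0.5 nM replicates 1, 2 and 3, and 8 and 4 without 5 µM replicates 1 and 2. These fits have fewer arrays or no pooled spread. At 0.5 nM against untreated 0 passed throughout. The median fold change of the 33 genes stayed between -0.08 and -0.04 log2 at 5 µM against untreated, and between -0.07 and -0.0063 at 5 µM against 0.5 nM. At 0.5 nM against untreated it ran from -0.06 to 0.0065 log2, so its sign was not fixed. A pairing of the arrays by the replicate numbers in the titles was not established. Not every correlation of same-numbered arrays, taken on deviations from the group means, was over 0.1, and this cut cannot exclude a partial pairing. The arrays numbered 3 correlated at 0.298, 0.33 and 0.298 in the 3 comparisons, while same-numbered arrays 1 and 2 ran from -0.00035 to 0.229. Between the doses a pair with different numbers, 5 µM replicate 2 and 0.5 nM replicate 1, correlated higher, at 0.348. With the replicate number as a block 15, 0 and 15 probe sets passed in the 3 comparisons and 0 of the 33 genes.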
